A study of Homo sapiens with 9 samples.

Results

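The genes described here were those whose symbol in the platform's probe annotation names a Rab GTPase, a Rab-like protein, a factor that handles prenylated Rabs, or a TBC1D-type GTPase-activating protein. The symbol pattern found 9 genes among the 14884 named genes on the arrays, and each was read from 1 probeset. SMS-KCNR cells, a long-used line from a human neuroblastoma, provided the RNA, which was read on 9 Affymetrix whole-transcript arrays. The groups of 3 arrays each were cells given simvastatin (5 µM) plus mevalonate (2 mM), cells given simvastatin (5 µM) alone, and cells given the solvent DMSO, all for 30 hours. All groups were the same line grown in the same medium with serum. Simvastatin is a statin that blocks HMG-CoA reductase, the enzyme that makes mevalonate, and added mevalonate bypasses the block. The design text calls the samples independent without saying what separated them. The p-values therefore set group differences only against the spread among these samples, which may be technical.

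Rab proteins are small GTPases that mark membranes and direct vesicle budding, transport and fusion. They act while attached to a membrane by geranylgeranyl groups, lipids made from mevalonate, which is the link between this family and a statin. A newly made Rab is carried by a Rab escort protein to the enzyme that attaches these lipids. GDP dissociation inhibitors then ferry the lipid-bearing protein between membranes, exchange factors (GEFs) load it with GTP, and GTPase-activating proteins (GAPs), most of which carry a TBC domain, switch it off. In neurons and in neuroblastoma cells, which store catecholamines in granules, Rabs are also known for their part in regulated secretion.

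The label "Rab GTPases and their regulators" covers the 9 genes only loosely. There was 1 Rab gene, RAB6D, a relative of the Golgi Rab6 proteins. Handling of prenylated Rabs was represented by CHML, which encodes Rab escort protein 2, and GDI2, a GDP dissociation inhibitor. RABGEF1 encodes Rabex-5, an exchange factor for Rab5 on early endosomes. RABGAP1 and RABGAP1L encode TBC-domain GAPs. TBC1D31 and TBC1D32 carry the family name but are known for centriolar satellites and for cilium formation, and TBC1D3P1-DHX40P1 is annotated as a transcribed pseudogene. The other numbered Rabs, RABGGTA, RABGGTB and CHM are not analysed here. The probe annotation used gives a single gene name to 16098 of 53617 probesets, and probesets with no name or several names were left out. None of these genes that fit the symbol pattern had a probeset with a single name, so a count over the 9 genes does not speak for the Rab family.

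The RAB6D value needs care, because its gene has a close copy. In RefSeq (GRCh38.p14) the promoter windows of RAB6D and RAB6C, each 300 bases long, aligned with 275 identical and 13 mismatched bases and 24 bases opposite gaps. The first 120 bases of the longest gap-free stretch are shown to let the closeness be seen. Capitals mark the 7 of these bases at which the copies differ. The RAB6D stretch lies at chr2:131364287-131364406 on the minus strand and the RAB6C stretch at chr2:129979416-129979535 on the plus strand.
RAB6D: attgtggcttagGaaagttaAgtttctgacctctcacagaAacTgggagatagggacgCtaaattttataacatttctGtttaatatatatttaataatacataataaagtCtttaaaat
RAB6C: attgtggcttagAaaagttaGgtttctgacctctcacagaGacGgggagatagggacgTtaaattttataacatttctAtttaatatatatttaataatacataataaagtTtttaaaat
The RAB6D stretch lies upstream of the gene's annotated first base at 131364168, so it does not show what the probeset reads. Whether the RAB6D probeset separates the copies was not tested. A different kind of repeat was seen at RABGEF1, of which the table held 4 start windows. The windows starting at 66654317, 66681916 and 66740483 of chromosome 7 shared 79.5% to 84.5% of their aligned bases. RefSeq lists RABGEF1P1 and RABGEF1P2 as pseudogenes on the same chromosome, but no pseudogene sequence was aligned. Whether the RABGEF1 probeset reads more than 1 locus was not tested.

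HMGCS1, a cholesterol synthesis enzyme gene, had mean log2 values of 8.62 with simvastatin plus mevalonate, 9.68 with simvastatin and 8.01 with DMSO. Of the 14884 genes, 13.4% changed between simvastatin and DMSO (limma, Benjamini-Hochberg adjusted p under 0.05), 11% between simvastatin plus mevalonate and simvastatin, and 0.0739% between simvastatin plus mevalonate and DMSO. The last share is 11 genes, and the count fell whenever an array of the compared groups was left out. It was 0 without DMSO replicate 1, 2 or 3 or without simvastatin plus mevalonate replicate 1. It was 2 without simvastatin plus mevalonate replicate 2 and 3 without its replicate 3. HMGCS1, among the 11, kept a log2 change of 0.57 to 0.62 whichever array was left out. Whether the count fell through fewer arrays or through particular arrays was not tested. Arrays of the same group correlated at 0.994 to 0.996 across genes. Of 11 measured noradrenergic markers, among them PHOX2A, HAND2, GATA3, DBH and TH, the mean log2 level per array was 9.66 to 9.73 with simvastatin plus mevalonate, 9.39 to 9.42 with simvastatin and 9.76 to 9.79 with DMSO. Of these 11 markers, 0 rose and 8 fell with simvastatin against DMSO. For 4 Schwann and glial markers the mean level was 5.34 to 5.42 with simvastatin plus mevalonate, 5.24 to 5.37 with simvastatin and 5.19 to 5.34 with DMSO, and 0 changed with simvastatin (limma, 0 also at an unadjusted p under 0.05). Of 8 mesenchymal markers 1 rose and 4 fell with simvastatin, at mean levels of 7.38 to 7.43 with simvastatin plus mevalonate, 7.12 to 7.21 with simvastatin and 7.49 to 7.50 with DMSO. Of 3 blood and endothelial markers 1 rose and 0 fell with simvastatin, at mean levels of 5.48 to 5.60 with simvastatin plus mevalonate, 5.56 to 5.73 with simvastatin and 5.34 to 5.53 with DMSO. It was CD68, a lysosomal protein used as a macrophage marker, which rose by 0.48 on the log2 scale (adjusted p = 0.00854, limma) and fell by 0.38 on adding mevalonate (adjusted p = 0.0283). The part of these markers in the results on the Rab-related genes was not tested. In these bulk samples a change in every cell and a change in the share of cells that express a gene cannot be told apart.

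None of the 9 genes passed the test when simvastatin was set against DMSO (limma, 0 of 9, where 13.4% of all genes passed). At an unadjusted p under 0.05 there were 3 of 9, where 25.6% of all genes reached that level. The median absolute log2 change of the 9 genes was 0.12, beside 0.10 over all genes, and their changes ran from -0.16 to 0.16. Leaving aside RAB6D, whose dim probeset puts no useful limit on its expression, the 95% interval reaching furthest from 0 was that of RABGEF1, up to 0.35 on the log2 scale or 1.28-fold. The groups did not overlap for 4 of the 9, against 28.6% of all genes. These were RABGAP1 and TBC1D32, lower with simvastatin, and GDI2 and RABGAP1L, higher with it.

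**Figure D1:**
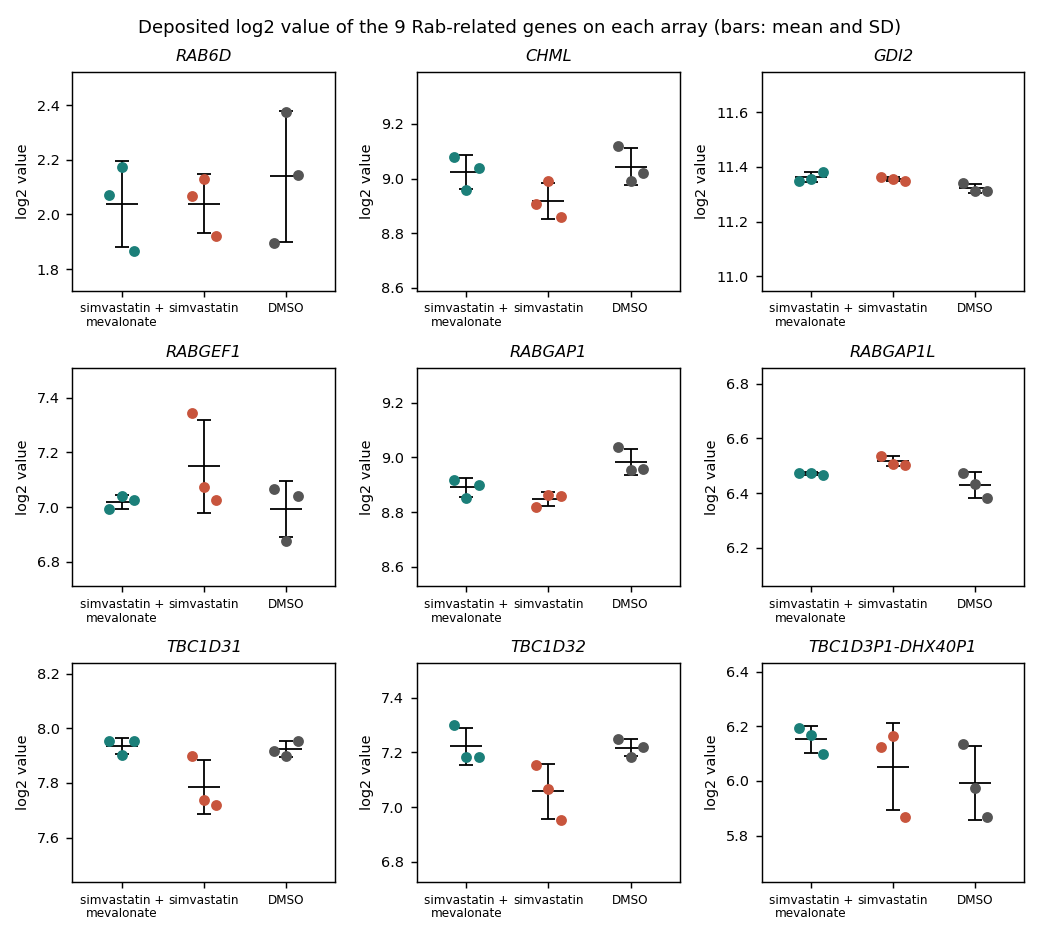
Each panel plots the deposited log2 value of 1 gene (vertical axis, 0.8 log2 units high in every panel) on the 3 arrays of each group, with the mean and SD as bars. GDI2 varied by 0.07 over the 9 arrays and RAB6D by 0.51. RABGAP1 and TBC1D32 lie lower, and GDI2 and RABGAP1L higher, on all simvastatin arrays than on all DMSO arrays, by margins small beside the panel height.

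CHML, of the factors that handle prenylated Rabs, differed more than GDI2 between simvastatin and DMSO, short of a call. Its log2 values were 9.08, 8.96 and 9.04 with simvastatin plus mevalonate, 8.91, 8.99 and 8.86 with simvastatin, and 9.12, 8.99 and 9.02 with DMSO. Simvastatin replicate 2 reached the lowest DMSO array, so the groups overlapped at that edge. The log2 change with simvastatin was -0.12 (95% interval -0.25 to 0.0044, adjusted p = 0.212 by limma), and that on adding mevalonate was 0.11 (-0.02 to 0.23, adjusted p = 0.303).

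GDI2 was the steadiest of the 9 genes. Its values were 11.35, 11.36 and 11.38 with simvastatin plus mevalonate, 11.36, 11.35 and 11.35 with simvastatin, and 11.34, 11.31 and 11.31 with DMSO. Every drug-treated array lay above every DMSO array, but the gap was small, with a log2 change of 0.03 for simvastatin (-0.05 to 0.11, adjusted p = 0.627). The same comparison for simvastatin plus mevalonate gave 0.04 (-0.04 to 0.12, adjusted p = 0.726).

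RAB6D, the only Rab among the genes, was dim. It had values of 2.07, 2.17 and 1.87 with simvastatin plus mevalonate, 2.07, 2.13 and 1.92 with simvastatin, and 1.90, 2.38 and 2.14 with DMSO, all far below 5.19, the median of all probesets. The 3 groups overlapped completely. Its change with simvastatin was -0.10 (-0.39 to 0.19, adjusted p = 0.684), the widest interval of the 9 genes in that comparison. The direction rested on 1 array, since the change was -0.22 without DMSO replicate 1 and 0.02 without DMSO replicate 2.

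The exchange factor gene RABGEF1 had the largest positive change of the 9 between simvastatin and DMSO, carried by 1 array. It stood at 6.99, 7.04 and 7.03 with simvastatin plus mevalonate, at 7.34, 7.07 and 7.03 with simvastatin, and at 7.06, 6.88 and 7.04 with DMSO. Simvastatin replicate 1 was the high array, and the other simvastatin arrays lay among or just above the DMSO arrays. The log2 change was 0.16 (-0.04 to 0.35, adjusted p = 0.318), and 0.06 without that array.

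RABGAP1, a TBC-domain GAP linked to Rab6 and to the centrosome, came closest to the threshold. Its values were 8.92, 8.85 and 8.90 with simvastatin plus mevalonate, 8.82, 8.86 and 8.86 with simvastatin, and 9.04, 8.95 and 8.96 with DMSO. All drug-treated arrays, with or without mevalonate, lay below all DMSO arrays. The log2 change with simvastatin was -0.14 (-0.23 to -0.04, adjusted p = 0.0740), or 1.10-fold lower. It passed when genes dimmer than the median probeset were left out (adjusted p = 0.0356) and with an intensity trend and a robust variance model (0.0167). Adding mevalonate gave 0.04 (-0.05 to 0.14, adjusted p = 0.601), and simvastatin plus mevalonate against DMSO gave -0.09 (-0.19 to 0.0040, adjusted p = 0.475).

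A start region of RABGAP1 is shown because this gene lay nearest to a call and its window held the only E-box among the 19 windows held for the 9 genes. The window runs from 250 bases before to 50 after a start held in the promoter table, which lies inside the gene, downstream of its first annotated base at 122931671. The window is at chr9:122940770-122941069 on the plus strand (RefSeq, GRCh38.p14), and the capitals mark the letters CACGTG.
RABGAP1: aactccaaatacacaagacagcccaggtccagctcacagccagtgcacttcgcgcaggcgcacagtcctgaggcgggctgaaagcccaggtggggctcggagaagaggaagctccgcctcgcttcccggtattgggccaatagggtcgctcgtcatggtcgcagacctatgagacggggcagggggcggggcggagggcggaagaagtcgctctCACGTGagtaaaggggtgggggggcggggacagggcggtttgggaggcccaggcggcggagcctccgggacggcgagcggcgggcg
Windows were held for 7 of the 9 genes, 19 windows in all, and 3 motifs were searched on both strands. The E-box CACGTG occurred in 1 of the 19 windows, against 7.26% of all 35116 windows. The cell cycle homology letters TTTGAA occurred in 2 of the 19, both at RABGAP1L, against 15.2% of all windows. The letters TCACNCCAC, a sterol regulatory element with N for any base, occurred in 0 of the 19, against 1.13% of all. A match is a run of letters and not a shown site of binding.

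RABGAP1L, the close relative of RABGAP1, differed in the other direction. It stood at 6.48, 6.48 and 6.47 with simvastatin plus mevalonate, at 6.54, 6.51 and 6.50 with simvastatin, and at 6.48, 6.43 and 6.38 with DMSO. The simvastatin arrays were above all others by a small margin, and the log2 change against DMSO was 0.09 (-0.0033 to 0.18, adjusted p = 0.212). Adding mevalonate gave -0.04 (-0.13 to 0.05, adjusted p = 0.569).

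The genes named for the TBC domain but known from centrioles and cilia had lower values with simvastatin alone than in either other group, short of a call. TBC1D32 had 7.30, 7.18 and 7.18 with simvastatin plus mevalonate, 7.15, 7.07 and 6.95 with simvastatin, and 7.25, 7.18 and 7.22 with DMSO. All simvastatin arrays lay below all others. Its log2 change was -0.16 with simvastatin (-0.30 to -0.02, adjusted p = 0.133) and 0.16 on adding mevalonate (0.03 to 0.30, adjusted p = 0.135), while simvastatin plus mevalonate against DMSO gave 0.00 (-0.13 to 0.14). TBC1D31 had 7.95, 7.90 and 7.95 with simvastatin plus mevalonate, 7.90, 7.74 and 7.72 with simvastatin, and 7.92, 7.90 and 7.96 with DMSO. Simvastatin replicate 1 tied with the lowest DMSO array and lay just below all arrays with mevalonate, and replicates 2 and 3 lay further below. The log2 change was -0.14 with simvastatin (-0.26 to -0.01, adjusted p = 0.149) and 0.15 on adding mevalonate (0.03 to 0.27, adjusted p = 0.130). Without simvastatin replicate 1 both TBC1D31 differences passed, at -0.19 (adjusted p = 0.0288) and 0.21 (adjusted p = 0.0267). These comparisons share the simvastatin arrays.

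The pseudogene TBC1D3P1-DHX40P1 had values of 6.19, 6.17 and 6.10 with simvastatin plus mevalonate, 6.13, 6.16 and 5.87 with simvastatin, and 6.14, 5.97 and 5.87 with DMSO. Its groups overlapped in every comparison. Between simvastatin plus mevalonate and DMSO its log2 change was 0.16 (-0.05 to 0.37, adjusted p = 0.577), and 0.10 without DMSO replicate 3. Several TBC1D3 pseudogenes lie elsewhere in the genome, and whether its probeset separates them was not tested.

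**Figure D2:**
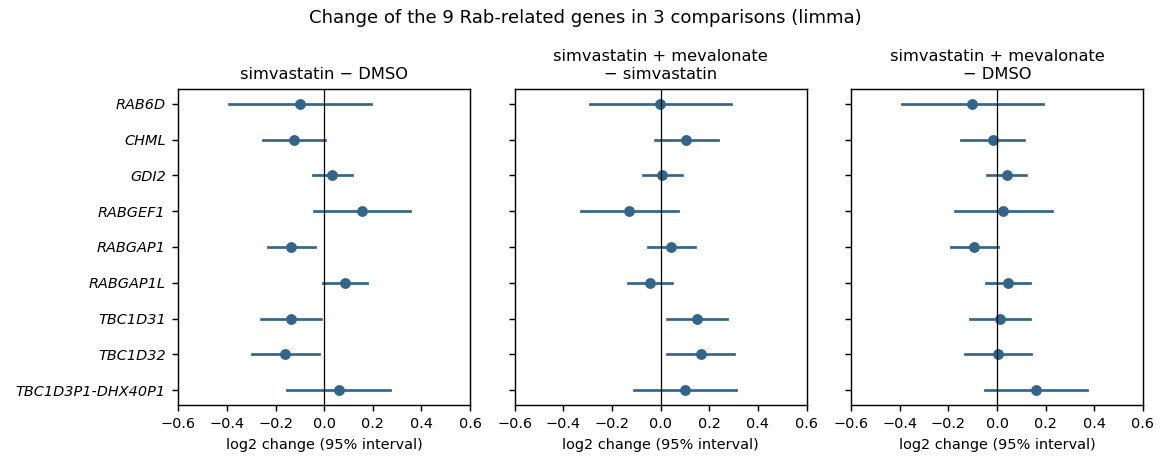
The points are log2 changes of the 9 genes and the lines their 95% intervals from limma, in the comparisons of simvastatin with DMSO, simvastatin plus mevalonate with simvastatin, and simvastatin plus mevalonate with DMSO. No interval reaches 0.4 in either direction, and in the first comparison those of RABGAP1, TBC1D31 and TBC1D32 exclude 0 before any adjustment.

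When mevalonate was added to simvastatin, 0 of the 9 genes passed (limma, where 11% of all genes did), and 2 of 9, TBC1D31 and TBC1D32, had an unadjusted p under 0.05. Groups did not overlap for 3 of 9, against 27.3% of all genes. These were TBC1D31 and TBC1D32, higher with mevalonate, and RABGAP1L, lower with it. Between simvastatin plus mevalonate and DMSO 0 of 9 passed (where 0.0739% of all genes did), 0 of 9 had an unadjusted p under 0.05, and groups did not overlap for 2 of 9, RABGAP1 and GDI2, against 16.5% of all genes. Leaving aside RAB6D, the 95% interval end furthest from 0 was -0.33 on adding mevalonate, that of RABGEF1, and 0.37 for simvastatin plus mevalonate against DMSO, that of TBC1D3P1-DHX40P1. These shares were not tested against those over all genes.

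Genes of the same pathway that the symbol pattern left out were read from 4 lists, with 71 of 88 entries measured. Of these 71 genes, 12 rose and 3 fell in simvastatin against DMSO (15 of 71, or 21.1%, where 13.4% of all genes passed). On adding mevalonate 1 rose and 10 fell (15.5%, where 11% of all genes passed), and 10 genes passed in both comparisons, which share the simvastatin arrays. Between simvastatin plus mevalonate and DMSO 0 of 71 passed (limma). Whether the 71 genes and the 9 genes differ in this respect was not tested.

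**Figure D3:**
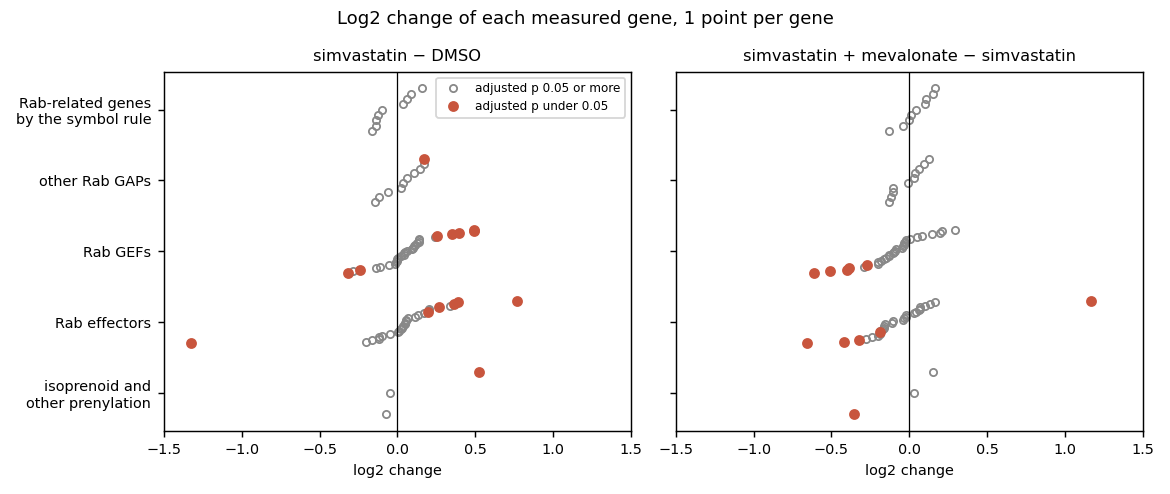
Each point is the log2 change of 1 gene, in simvastatin against DMSO on one panel and simvastatin plus mevalonate against simvastatin on the other, grouped by role, with filled points for genes past the threshold. The 9 genes of the symbol pattern hold no filled point. In simvastatin against DMSO 7 of 30 exchange factors and 6 of 28 effectors are filled, where 13.4% of all genes passed. Whether the groups of genes differ was not tested.

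Of 10 other GAPs measured, 1 rose with simvastatin and 0 fell, with a median log2 change of 0.05 (0.01 over all genes), and 0 changed on adding mevalonate (2 at an unadjusted p under 0.05). The gene that rose was SGSM1, a TBC-domain protein that binds Rabs. It had 5.78, 5.76 and 5.77 with simvastatin plus mevalonate, 5.90, 5.93 and 5.82 with simvastatin, and 5.77, 5.70 and 5.67 with DMSO, with the simvastatin arrays above all others. Its log2 change was 0.17 ± 0.05 (SE, adjusted p = 0.0402), and 0.15 to 0.20 when each array was left out in turn. The call was lost without DMSO replicate 2 or 3, simvastatin replicate 1 or 2 or any simvastatin plus mevalonate array, with adjusted p up to 0.126, and with an intensity trend and robust variances (0.0994). The list held 0 calls without 6 of those 7 arrays and 1 without DMSO replicate 3. RAB3GAP1 and RAB3GAP2, the subunits of the Rab3 GAP, had changes of 0.04 and 0.14 (adjusted p = 0.692 and 0.0820).

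Of 30 exchange factors measured, 5 rose and 2 fell with simvastatin (23.3%, median log2 change 0.06) and 0 rose and 5 fell on adding mevalonate (16.7%, median -0.09). The first count was 4 in place of 7 without DMSO replicate 2, DMSO replicate 3 or simvastatin replicate 1. DENND2A, a DENN-domain exchange factor for Rab9, stood at 5.69, 5.70 and 5.70 with simvastatin plus mevalonate, at 6.33, 6.10 and 6.19 with simvastatin, and at 5.67, 5.63 and 5.84 with DMSO. The simvastatin arrays lay clear of all others. It rose 1.41-fold with simvastatin (log2 change 0.49 ± 0.07, adjusted p = 0.00282) and fell on adding mevalonate (-0.51 ± 0.07, adjusted p = 0.00284).

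ANKRD27 (VARP), an exchange factor for Rab21, had 7.25, 7.13 and 7.28 with simvastatin plus mevalonate, 7.65, 7.58 and 7.58 with simvastatin, and 7.28, 7.22 and 7.12 with DMSO, a 1.32-fold rise with the drug (0.40 ± 0.06, adjusted p = 0.00258). It fell by 0.38 on the log2 scale on adding mevalonate (adjusted p = 0.00374). RAB3IL1 (GRAB), which acts on Rab3A and Rab8, had 6.07, 6.21 and 5.78 with simvastatin plus mevalonate, 6.63, 6.61 and 6.66 with simvastatin, and 6.34, 6.08 and 6.01 with DMSO. The simvastatin arrays agree within 0.05 and the other groups spread wider. RAB3IL1 rose by 0.49 ± 0.12 (adjusted p = 0.0265). The call was lost on leaving out any simvastatin array or DMSO replicate 2 or 3 (adjusted p from 0.0656 to 0.0907). The log2 change itself stayed between 0.43 and 0.59 whichever array was left out. Its fall on adding mevalonate (-0.61 ± 0.12, adjusted p = 0.0116) was called whichever single array was left out. DENND4A, an exchange factor for Rab10, stood at 8.80, 8.62 and 8.65 with simvastatin plus mevalonate, at 9.12, 9.18 and 8.97 with simvastatin, and at 8.77, 8.64 and 8.82 with DMSO. It rose by 0.35 ± 0.08 (adjusted p = 0.0178), a call lost without DMSO replicate 2 or simvastatin replicate 1 or 2 (adjusted p from 0.0542 to 0.0621), and fell with mevalonate (-0.40 ± 0.08, adjusted p = 0.0110).

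Effectors, the proteins that GTP-loaded Rabs recruit, rose in 5 and fell in 1 of 28 cases with simvastatin (21.4%, median log2 change 0.05), and rose in 1 and fell in 4 on adding mevalonate (17.9%, median -0.11). The fall was that of RPH3A, rabphilin, a Rab3A effector on secretory vesicles. It had 6.36, 6.55 and 6.36 with simvastatin plus mevalonate, 5.18, 5.60 and 4.99 with simvastatin, and 6.57, 6.65 and 6.51 with DMSO. The simvastatin arrays were lowest and also the most spread, and the gene was 2.50-fold lower with the drug (adjusted p = 0.000493) and 2.25-fold higher on adding mevalonate (adjusted p = 0.00113). MICALL1, an effector of Rab8 and Rab35 on recycling endosomes, had 7.02, 7.15 and 7.13 with simvastatin plus mevalonate, 7.83, 7.74 and 7.69 with simvastatin, and 7.10, 6.98 and 6.87 with DMSO. It rose 1.71-fold with simvastatin (0.77 ± 0.07, adjusted p = 0.000213) and fell on adding mevalonate (-0.65 ± 0.07, adjusted p = 0.000611). OPTN, optineurin, a Rab8 effector and autophagy receptor, had 5.42, 5.40 and 5.56 with simvastatin plus mevalonate, 5.81, 5.85 and 5.97 with simvastatin, and 5.54, 5.38 and 5.54 with DMSO. Its log2 changes were 0.39 ± 0.07 with simvastatin (adjusted p = 0.00664) and -0.42 ± 0.07 on adding mevalonate (adjusted p = 0.00541).

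**Figure D4:**
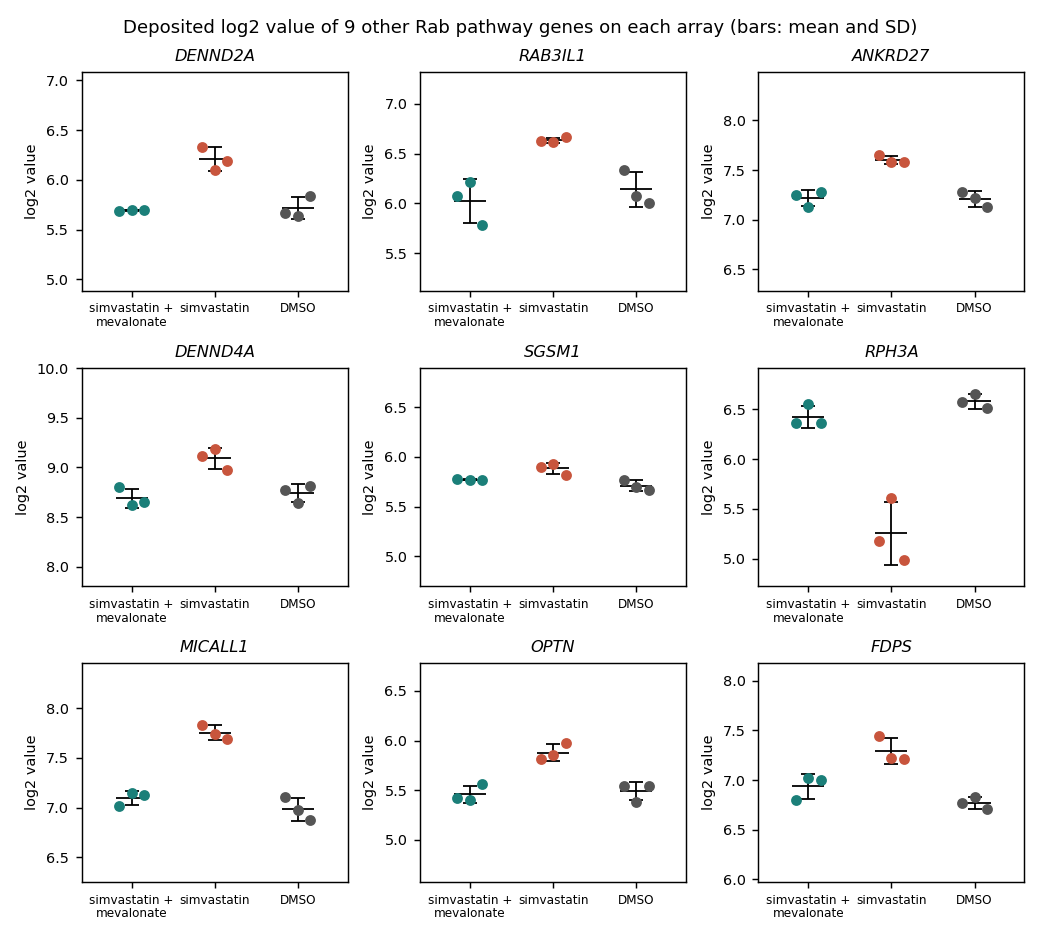
Each panel plots the deposited log2 value of 1 pathway gene outside the symbol pattern on the 3 arrays of each group (vertical axis, 2.2 log2 units high in every panel), with the mean and SD as bars. RPH3A dips to between 4.99 and 5.60 with simvastatin alone, MICALL1 reaches between 7.69 and 7.83, and the arrays with mevalonate lie near those with DMSO.

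Of 8 listed enzymes that act before, in or after the attachment of prenyl lipids, 3 were measured, and 1 rose with simvastatin. FDPS, which makes the farnesyl diphosphate from which the geranylgeranyl donor is built, had 6.79, 7.02 and 6.997 with simvastatin plus mevalonate, 7.44, 7.23 and 7.21 with simvastatin, and 6.77, 6.83 and 6.70 with DMSO. It rose 1.44-fold (0.53 ± 0.08, adjusted p = 0.00390) and fell on adding mevalonate (-0.36 ± 0.08, adjusted p = 0.0274). The call of that fall was lost without simvastatin replicate 1 or simvastatin plus mevalonate replicate 1 or 3 (adjusted p from 0.0567 to 0.0828). It was also lost with the DMSO arrays left out of the fit (0.0713) and with the replicate number as a block (0.0717). The log2 change stayed between -0.40 and -0.28 whichever array was left out. ICMT and ZMPSTE24, which process prenylated proteins after the lipid is attached, had changes of -0.05 and -0.07 with simvastatin (adjusted p = 0.506 and 0.418). Of the 16 pathway genes called in either of these comparisons 15 had windows, 22 in all, which held 0 matches to TCACNCCAC, CACGTG or TTTGAA. Over all 35116 windows, 1.13%, 7.26% and 15.2% held these letters. The absence of an exact match does not show the absence of a binding site.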

How the data were processed

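Total RNA of 9 samples was hybridised to Affymetrix whole-transcript arrays, per the labels' protocols. The authors deposited log2 values, 1 per probeset and array, a scale read from the values (0.92 to 14.0 with array medians of 5.17 to 5.21). GCRMA and HOMER are the tools in the submitters' processing notes, which give no version or role, and the build was not given. Where arrays are scaled to one another a shift of all genes is not seen, and changes of dim genes are poorly determined. Precision is limited by the number of arrays.

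Of 53617 probesets, 16098 had 1 gene symbol. The brightest probeset was taken where a gene had several (each of the 9 genes had 1). Group means were compared with limma 3.58.1 in R 4.3.3 (lmFit and eBayes, 9 arrays in 1 fit, 3 contrasts), with Benjamini-Hochberg adjustment over 14884 genes and a threshold of 0.05. Intervals are 95% intervals from the same fit. "Rose" and "fell" are used of genes past the threshold. The procedure was tested on simulated data. The genes, lists and named genes were chosen with earlier results of these data known. All 9 genes are named. Of each list outside them, up to 3 genes past the threshold with the largest change per comparison are named, and RAB3GAP1, RAB3GAP2, ICMT and ZMPSTE24 were added after their values were seen. Promoter windows were compared with Biopython 1.88. Protein sequences were not used here.

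Alternatives were quantile normalization, centring on the median, the mean over probesets, leaving out dim genes, only the groups compared, a trend with robust variances, the replicate number as a block, and leaving out each array. Same-numbered arrays did not deviate together (correlations -0.08 to 0.05 over 9 pairs), so the titles' numbers were not treated as pairs.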

Additional observations from a re-analysis of the deposited data

How the results depend on the processing

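The counts of the 9 genes past the threshold were 0 in each comparison and stayed at 0 in 44 of 48 repeats. For simvastatin against DMSO the count was 1 when genes dimmer than the median probeset were left out and 1 with an intensity trend and robust variances, both RABGAP1, whose change is -0.14 throughout those settings. Leaving out each array gave 0 to 1 for simvastatin against DMSO and 0 to 1 for simvastatin plus mevalonate against simvastatin, the 1 being TBC1D31 without simvastatin replicate 1. For simvastatin plus mevalonate against DMSO it gave 0 to 0. The cause of these differences was not tested. RAB6D had no value when dim genes were left out. With the replicate number as a block the count of the 9 genes was 0 in each comparison, SGSM1 was no longer called in simvastatin against DMSO (adjusted p = 0.0678), nor was FDPS on adding mevalonate (0.0717). The same-numbered array was the best correlated one in 1 of 9 pairs, and the numbers are not known to mark a shared culture. Of the 9 pathway genes shown by array, none turned the direction of a difference past the threshold in any alternative run; other genes were not followed one by one. Between simvastatin plus mevalonate and DMSO, the 11 genes past the threshold over all genes became 105 when dim genes were left out, 223 with the trend and robust variances, and 0 with the replicate block or only the groups compared. Quantile normalization gave 3 calls among the 10 other GAPs in place of 1 for simvastatin against DMSO. So did leaving out dim genes and the trend with robust variances, the last without SGSM1 among them (adjusted p = 0.0994). On adding mevalonate, leaving out dim genes gave 8 calls among the exchange factors in place of 5 and 2 among the isoprenoid and prenylation enzymes in place of 1. The trend with robust variances gave 2 and 1 in place of 1 and 0 among those enzymes and the other GAPs there. The replicate block and the use of only the groups compared gave 0 other GAPs for simvastatin against DMSO and 0 of those enzymes on adding mevalonate. The RAB6D values, at 1.87 to 2.38, were the dimmest and had the widest intervals.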
